A study of Mus musculus with 14 samples.

Results

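The homeostatic microglia genes P2ry12, Tmem119, Cx3cr1, Sall1, Csf1r, Siglech, Gpr34, Selplg and Aif1 mark microglia in their resting, surveying state. These 9 genes were taken by symbol from GENCODE M21, and each was present among the 55536 Ensembl genes of the hippocampal RNA-seq count table. With at least 10 counts in total over the mice, all 9 were among the 38070 genes tested. Whole hippocampus was sequenced from 14 mice aged 10 months, with 1 library per mouse. The MRL group (4 mice) carried the lpr allele of Fas as B6.MRL-Faslpr/J, a lupus-prone line. The MRL-IRAK4-KD group (4 mice) carried the same allele together with kinase-dead IRAK4, the kinase below Toll-like and interleukin-1 receptors. The C57BL/6 group (3 mice, labelled C57BL6/J) carried neither, and the IRAK4-KD group (3 mice) carried, by its labels, kinase-dead IRAK4 alone. The library labelled IRAK4-KD replicate 3 had the Fas transcript pattern of the MRL and MRL-IRAK4-KD libraries, as given below. All 4 groups shared the C57BL/6 background and were perfused with cold PBS before dissection. Both alleles were germline, so they were present in every cell of the mouse and not only in microglia. The comparisons ask whether kinase-dead IRAK4 alters the hippocampus of lupus-prone mice, with the C57BL/6 and IRAK4-KD groups as controls.

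Microglia are the resident macrophages of the brain, seeded in the embryo and renewed locally. Their survival depends on the CSF1 receptor, and their identity on TGF-beta signalling and on the transcription factors PU.1 and SALL1. In this resting state they sense nucleotides, lipids and neuronal fractalkine through dedicated receptors. P2ry12 and Tmem119 are often lower in activated microglia, whereas Aif1 is a general marker of macrophages. In bulk tissue a lower level can come from fewer microglia or from less RNA per microglial cell, and these cannot be told apart here.

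PU.1, encoded by Spi1, binds purine-rich sites around GGAA, so the promoters of the set were searched for the letters GAGGAAG and GGAAGTG, which overlap in GGAAG, on both strands. RefSeq promoter windows on GRCm38.p6, running from 250 bases before to 50 bases after a start, matched 5 of the 9 genes in 7 windows. Only the Siglech window held either run of letters. Over all 32851 promoter windows, 13.6% held GAGGAAG, 11.004% held GGAAGTG and 21.9% held either. The Siglech window, chr7:55767934-55768233 on the plus strand, is shown because it carries the only match. The capitals mark the reverse complement of GGAAGTG, its first letter 157 bases before the transcription start.
Siglech: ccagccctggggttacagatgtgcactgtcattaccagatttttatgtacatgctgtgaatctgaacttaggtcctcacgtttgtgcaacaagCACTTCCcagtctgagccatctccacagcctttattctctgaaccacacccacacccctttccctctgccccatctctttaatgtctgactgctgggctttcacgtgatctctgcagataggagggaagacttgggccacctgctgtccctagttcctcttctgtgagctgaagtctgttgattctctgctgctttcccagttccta
The window is a description of letters only, and no binding data were analysed here.

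Library totals ranged from 279941472 to 572398312 counts, and the rarest of the 9 genes, Aif1, still had 1294 to 3258 counts per mouse. A pair of libraries stood apart. MRL-IRAK4-KD replicate 4 had a library concentration of 13.5 nM by qPCR against 23.5 to 27.55 nM for the others, and gave 1.40 counts per read against 1.80 to 2.08. Its summed choroid plexus markers reached 7881 CPM (the count relative to the TMM-scaled library total), against at most 1680 CPM in any other mouse. The library labelled IRAK4-KD replicate 3 had 514 counts of the Fas transcript Fas-204 and 0 of Fas-201, which is the pattern of the MRL and MRL-IRAK4-KD libraries, and it is called below by its label. Its summed striatal markers were 484 CPM, against at most 181 CPM elsewhere. Irak4 itself lay between 1.54 and 2.72 CPM in every mouse, and since the allele abolishes kinase activity, its transcript level does not check the label. Y-linked genes had 0 to 4 counts per library.

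Ranked by mean CPM per kilobase of exon over the 14 mice, Csf1r stood at 14.4 ± 2.17 and P2ry12 at 14.2 ± 2.15 (SD, n = 14). Csf1r exceeded P2ry12 in 6 of 14 mice, so the order of this pair was not resolved. Cx3cr1 followed at 11.6 ± 1.16 CPM per kilobase, then Tmem119 at 9.61 ± 2.01, Gpr34 at 7.03 ± 1.09 and Selplg at 6.11 ± 1.69. At the lower end were Siglech at 4.87 ± 0.332, Sall1 at 3.76 ± 0.647 and Aif1 at 3.11 ± 0.566 CPM per kilobase. Below Csf1r, each gene exceeded the next in 12 to 14 of the 14 mice, although the ranges of neighbours overlapped in every case. The spread between mice also differed among the genes. The coefficient of variation over 14 mice was 6.82% for Siglech and 27.6% for Selplg, against a median of 14.9% over the 9734 genes within the same range of mean CPM.

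**Figure D1:**
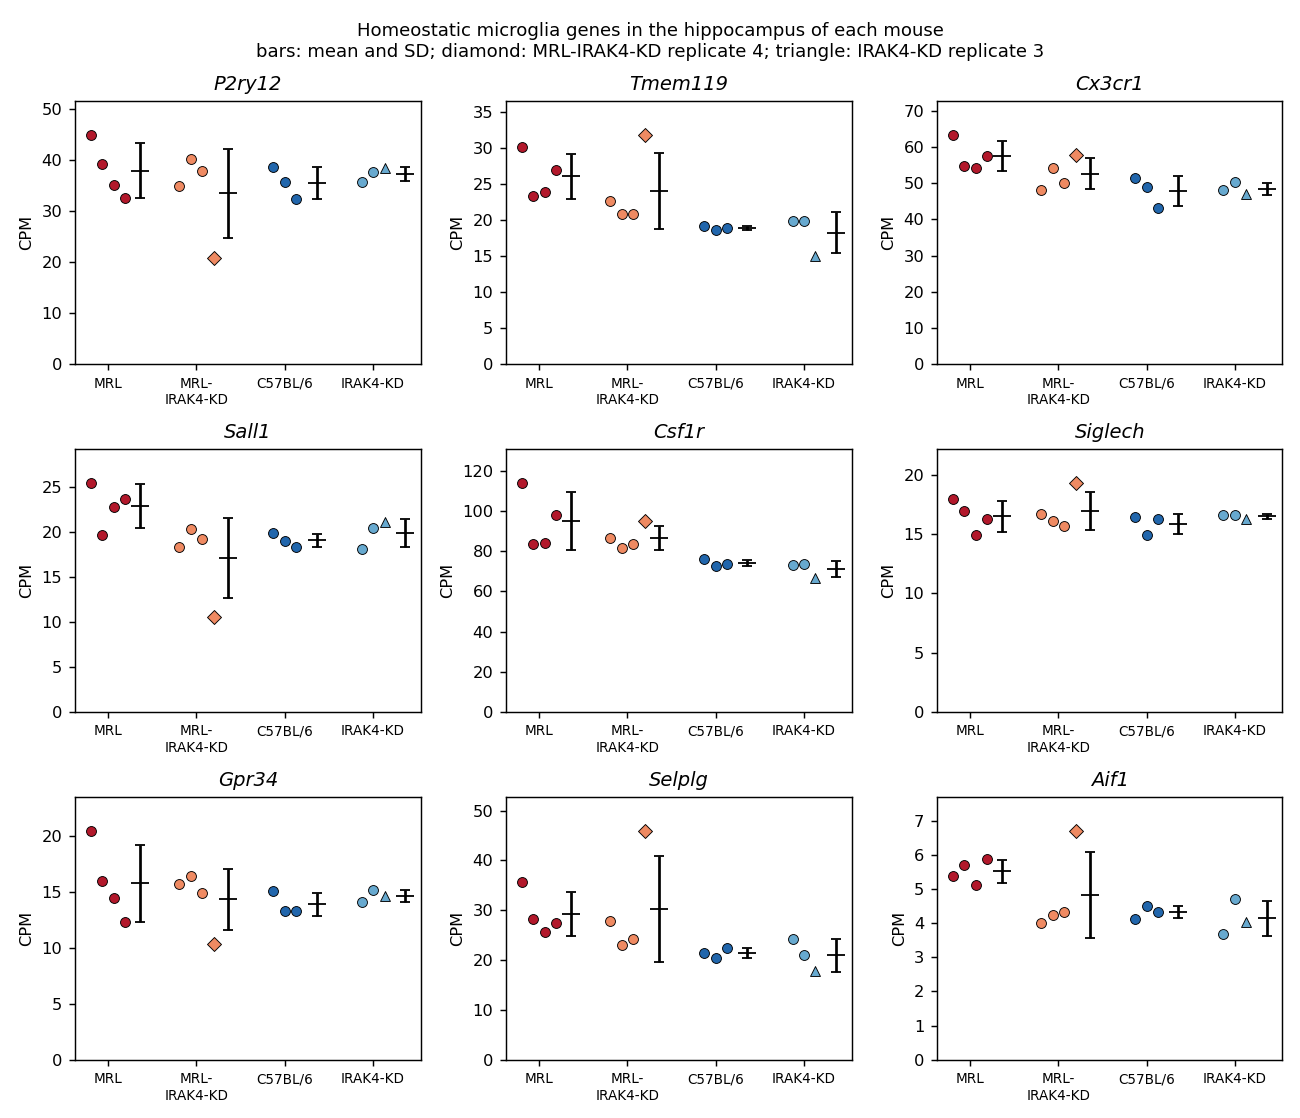
CPM of each of the 9 genes (vertical axes, from 0) in each mouse, by group, with the mean and SD of the group as a black bar beside the points. In MRL-IRAK4-KD replicate 4 (diamond) P2ry12, Sall1 and Gpr34 are at their lowest of the 14 mice, and Tmem119, Siglech, Selplg and Aif1 at their highest.

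The receptors come first. Csf1r (ENSMUSG00000024621.16, chromosome 18), the receptor for CSF1 and IL-34, measured 114, 83.4, 84.2 and 98.1 CPM in the MRL mice and 86.4, 81.4, 83.3 and 94.8 CPM in the MRL-IRAK4-KD mice. It measured 75.9, 72.8 and 73.5 CPM in C57BL/6 and 73.1, 73.8 and 66.8 CPM in IRAK4-KD. Every mouse of the MRL and MRL-IRAK4-KD groups was above every mouse of the other groups, and the lowest value was that of the library labelled IRAK4-KD replicate 3. That library had the Fas pattern of the MRL and MRL-IRAK4-KD libraries. Without it the remaining 5 mice reached at most 75.9 CPM, against at least 81.4 CPM. The share of all genes that separate the mice in this way is not given here, so how unusual the split is cannot be judged. Cx3cr1 (ENSMUSG00000052336.7, chromosome 9, 119901616 to 120069879), the fractalkine receptor, measured 63.3, 54.7, 54.3 and 57.6 CPM in MRL and 48.2, 54.3, 49.99 and 57.7 CPM in MRL-IRAK4-KD. Its C57BL/6 mice measured 51.3, 48.9 and 43.3 CPM and its IRAK4-KD mice 48.1, 50.3 and 47.0 CPM. All 4 MRL mice lay above every C57BL/6 and IRAK4-KD mouse, and the MRL-IRAK4-KD mice overlapped every other group. For this split, too, no share of all genes is given.

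P2ry12 (ENSMUSG00000036353.13, chromosome 3, 59216272 to 59262871), the ADP receptor that steers microglial processes to injured cells, measured 45.0, 39.3, 35.1 and 32.6 CPM in MRL. It measured 34.9, 40.4, 37.996 and 20.8 CPM in MRL-IRAK4-KD, 38.6, 35.7 and 32.3 CPM in C57BL/6 and 35.8, 37.7 and 38.5 CPM in IRAK4-KD. Apart from MRL-IRAK4-KD replicate 4 at the bottom and MRL replicate 1 at the top, the groups covered the same range. Gpr34 (ENSMUSG00000040229.11, chromosome X, 13632089 to 13640858), a receptor for lysophosphatidylserine, measured 20.4, 15.9, 14.4 and 12.3 CPM in MRL and 15.7, 16.4, 14.8 and 10.4 CPM in MRL-IRAK4-KD. The mice of the C57BL/6 and IRAK4-KD groups lay between 13.2 and 15.2 CPM. The same pair of mice held the extremes of both receptors.

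Among the other surface proteins, Tmem119 (ENSMUSG00000054675.5, chromosome 5, 113793729 to 113800516), a membrane protein used to tell microglia from blood-derived macrophages, measured 30.1, 23.3, 23.9 and 26.9 CPM in MRL. It measured 22.7, 20.9, 20.8 and 31.8 CPM in MRL-IRAK4-KD, 19.1, 18.6 and 18.9 CPM in C57BL/6 and 19.9, 19.8 and 15.0 CPM in IRAK4-KD. Every mouse of the MRL and MRL-IRAK4-KD groups was again above every mouse of the others, where the library labelled IRAK4-KD replicate 3 was the lowest. Without it the limits were 19.9 and 20.8 CPM. As for Csf1r, no share of all genes is given for this split. Selplg (ENSMUSG00000048163.13, chromosome 5, 113818536 to 113832644), which encodes the selectin ligand PSGL-1, measured 35.7, 28.3, 25.6 and 27.5 CPM in MRL and 27.8, 22.9, 24.3 and 45.9 CPM in MRL-IRAK4-KD. It measured 21.5, 20.4 and 22.4 CPM in C57BL/6 and 24.2, 20.9 and 17.7 CPM in IRAK4-KD. Tmem119 and Selplg are neighbours on the minus strand of chromosome 5. Siglech (ENSMUSG00000051504.18, chromosome 7, 55768178 to 55778925), a sialic acid-binding lectin that signals through the adaptor TYROBP, was the most even of the set. Its levels lay between 14.9 and 17.9 CPM in 13 mice and at 19.3 CPM in MRL-IRAK4-KD replicate 4.

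Inside the cell, Aif1 (ENSMUSG00000024397.14, chromosome 17, 35170991 to 35176068), which encodes the actin-binding protein IBA1, measured 5.38, 5.70, 5.13 and 5.88 CPM in MRL. It measured 4.01, 4.25, 4.32 and 6.70 CPM in MRL-IRAK4-KD, 4.14, 4.50 and 4.33 CPM in C57BL/6 and 3.68, 4.70 and 4.05 CPM in IRAK4-KD. MRL was the only group whose mice all exceeded 5 CPM, and MRL-IRAK4-KD replicate 4 was the only other mouse above that level. Sall1 (ENSMUSG00000031665.7, chromosome 8, 89027235 to 89044162), the zinc-finger factor that maintains microglial identity, measured 25.4, 19.6, 22.8 and 23.7 CPM in MRL and 18.3, 20.3, 19.3 and 10.6 CPM in MRL-IRAK4-KD. It measured 19.8, 19.0 and 18.4 CPM in C57BL/6 and 18.1, 20.4 and 21.1 CPM in IRAK4-KD. For Sall1, 3 of 4 MRL mice were above all MRL-IRAK4-KD mice. How many of all genes divide the mice as Aif1 or Sall1 did is not given here.

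Between MRL and MRL-IRAK4-KD mice no difference in the set was detected after adjustment. The 95% intervals of the 9 genes together ran from 0.726-fold to 1.71-fold, too wide to show that these groups were alike. The comparisons that follow share groups, so their values are not independent of each other. None of the 9 genes reached an adjusted p below 0.05 with edgeR, DESeq2 or limma-voom, where 0.0972% of all genes tested did with edgeR, 1.04% with DESeq2 and 0.559% with limma-voom. At an unadjusted p below 0.05, edgeR and DESeq2 each named 1 gene and limma-voom named 4, against backgrounds of 11.4% with edgeR, 11.7% with DESeq2 and 15.4% with limma-voom. The gene named by edgeR was Sall1, 1.34-fold higher in MRL (95% interval 1.04 to 1.71, adjusted p = 0.437, two-sided exact permutation p = 0.0571, n = 4 and 4). The remaining fold changes ran from 0.968 for Selplg to 1.146 for Aif1. Over the 9 genes the median log2 fold change was 0.13. It was 0.0023 over all genes tested and 0.015 over those with a mean of at least 1 CPM. Of the 9 values, 7 were above 0, as were 50.2% of all genes. The groups overlapped for each of the 9, where 5.26% of all genes did not overlap in either direction.

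MRL-IRAK4-KD replicate 4 decided several of these values. Without it the log2 fold change of Sall1 went from 0.42 to 0.25 and that of P2ry12 from 0.18 to 0.016. Over the same step Aif1 went from 0.20 to 0.40, Tmem119 from 0.12 to 0.29, and Selplg from -0.046 to 0.23. Without MRL replicate 1 the median over the set was 0.035. The number of the 9 genes at an unadjusted p below 0.05 was 4 without MRL-IRAK4-KD replicate 4 and 0 without MRL replicate 1. The shares of all genes at that level in these refits are not given here, so these numbers cannot be judged against them. Over all 24 settings tried, no gene of the set passed, and the lowest adjusted p was 0.0898.

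MRL mice against C57BL/6 gave the highest median over the set of the 4 comparisons. All 9 log2 fold changes were above 0, with a median of 0.27, although that of Siglech was -0.0027 when libraries were scaled by their totals alone. Over all genes tested the median was -0.0046, with 48.1% above 0. Over genes with a mean of at least 1 CPM it was 0.027. Tmem119 was 1.38-fold higher in MRL (95% interval 1.09 to 1.75, adjusted p = 0.778 by edgeR), Csf1r 1.28-fold (1.09 to 1.51, adjusted p = 0.693) and Cx3cr1 1.202-fold (1.04 to 1.39, adjusted p = 0.847). Selplg stood at 1.37-fold (0.997 to 1.87) and Aif1 at 1.28-fold (0.986 to 1.66). The groups did not overlap for these 5 genes, where 4.47% of all genes tested had all MRL mice above all C57BL/6 mice. Each gave an exact permutation p of 0.0571, the smallest that 4 against 3 mice allow. Sall1 stood at 1.199-fold (0.918 to 1.57), Gpr34 at 1.14-fold (0.878 to 1.47), P2ry12 at 1.07-fold (0.813 to 1.40) and Siglech at 1.04-fold (0.895 to 1.21). The intervals of these genes, and those of Selplg and Aif1, spanned 1.

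None of the 9 passed an adjusted p below 0.05 in this comparison with edgeR, DESeq2 or limma-voom, and edgeR called 0.0% of all genes tested, DESeq2 0.533% and limma-voom 0.0998%. At an unadjusted p below 0.05 edgeR named Tmem119, Csf1r and Cx3cr1, DESeq2 named 5 of the genes and limma-voom 6, against backgrounds of 5.55% with edgeR, 5.96% with DESeq2 and 12.1% with limma-voom. When single mice were left out, the median over the set lay between 0.23 and 0.34. Leaving out single mice gave 2 to 6 genes at that level, with 6 in the absence of MRL-IRAK4-KD replicate 4, a mouse of neither group that enters the shared estimate of spread. No shares of all genes are given for these refits, so the numbers cannot be judged against them. The lowest adjusted p over 24 settings was 0.0831. Markers of other cells were also higher in their fitted values in this comparison. All 12 monocyte and neutrophil markers were above 0, 10 of them at an unadjusted p below 0.05, with a median of 3.28 on the log2 scale. So were all 6 red cell markers, each at that level, with a median of 1.72, and all 7 endothelial markers, 4 of them at that level, with a median of 0.78. All 8 choroid plexus markers were above 0, 0 of them at that level, with a median of 1.43, and all 7 oligodendrocyte markers, 3 of them at that level, with a median of 0.33. The part of these cells in the levels of the 9 genes was not tested.

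Between the groups labelled IRAK4-KD and C57BL/6 no difference in the set was detected. Fold changes of IRAK4-KD over C57BL/6 ran from 0.959 for Aif1 to 1.05 for Gpr34, with a median of 0.020 on the log2 scale and 5 of 9 above 0, as were 47.0% of all genes. The 95% intervals of the 9 genes together ran from 0.701-fold to 1.40-fold. With edgeR, DESeq2 and limma-voom alike, 0 of 9 passed either an adjusted or an unadjusted p below 0.05, where edgeR called 0.147% of all genes by adjusted p and 3.8% by unadjusted p. DESeq2 called 0.426% by adjusted and 4.17% by unadjusted p, and limma-voom 0.381% and 9.17%. None of the 9 separated the groups, where 11.2% of all genes did in either direction. These intervals are too wide to show that the groups were alike. Without the pair of libraries that stood apart, Tmem119 went from -0.049 to 0.079 and Selplg from -0.032 to 0.081 on the log2 scale.

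MRL-IRAK4-KD mice differ from IRAK4-KD mice, by their labels, in the lpr allele. Here Selplg was 1.44-fold (95% interval 1.05 to 1.98), Tmem119 1.32-fold (1.04 to 1.67) and Csf1r 1.21-fold (1.03 to 1.43), each with adjusted p = 0.553 by edgeR. Tmem119 and Csf1r separated the groups, where 4.31% of all genes did in this direction. No gene of the set passed an adjusted p below 0.05 with any of the 3 tools, where edgeR called 0.0735% of all genes, DESeq2 0.801% and limma-voom 0.722%. Of the 9 values, 6 were above 0, as were 49.4% of all genes. The same 3 genes were at an unadjusted p below 0.05 with edgeR, against a background of 8.63%. DESeq2 also named 3 genes (background 9.67%) and limma-voom 2 (12.5%). These values moved with the libraries that stood apart. Without MRL-IRAK4-KD replicate 4 and IRAK4-KD replicate 3, the log2 fold change of Selplg went from 0.53 to 0.14, that of Tmem119 from 0.40 to 0.11 and that of Csf1r from 0.28 to 0.19, and 0 genes were at an unadjusted p below 0.05. Leaving out only MRL-IRAK4-KD replicate 4 gave 1 gene at that level, and leaving out only IRAK4-KD replicate 3 gave 0. Shares of all genes with only 1 library left out are not given here. With both left out, 6.80% of all genes were at that level. Sall1 went from -0.21 to -0.00082.

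The change of the lpr effect with the IRAK4 allele was tested as an interaction. It was above 0 for 8 of 9 genes, as for 49.7% of all genes, with a median of 0.14 on the log2 scale, and ran from -0.079 for Selplg to 0.48 for Sall1 (SE 0.25, adjusted p = 0.914 by edgeR). No gene passed, where edgeR called 0.00263% of all genes, DESeq2 0.158% and limma-voom 0.0578%. With edgeR or DESeq2, 0 genes were at an unadjusted p below 0.05, against 2 with limma-voom. The backgrounds were 4.17% with edgeR, 3.87% with DESeq2 and 7.89% with limma-voom. Without the pair of libraries that stood apart, Sall1 was at 0.26 and Tmem119 went from 0.069 to 0.36. In that fit 2 genes were at that level, as were 4.24% of all genes. An lpr effect that depends on the IRAK4 allele was not detectable in these genes with 14 mice. The interval for Sall1 ran from 0.956-fold to 2.03-fold.

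**Figure D2:**
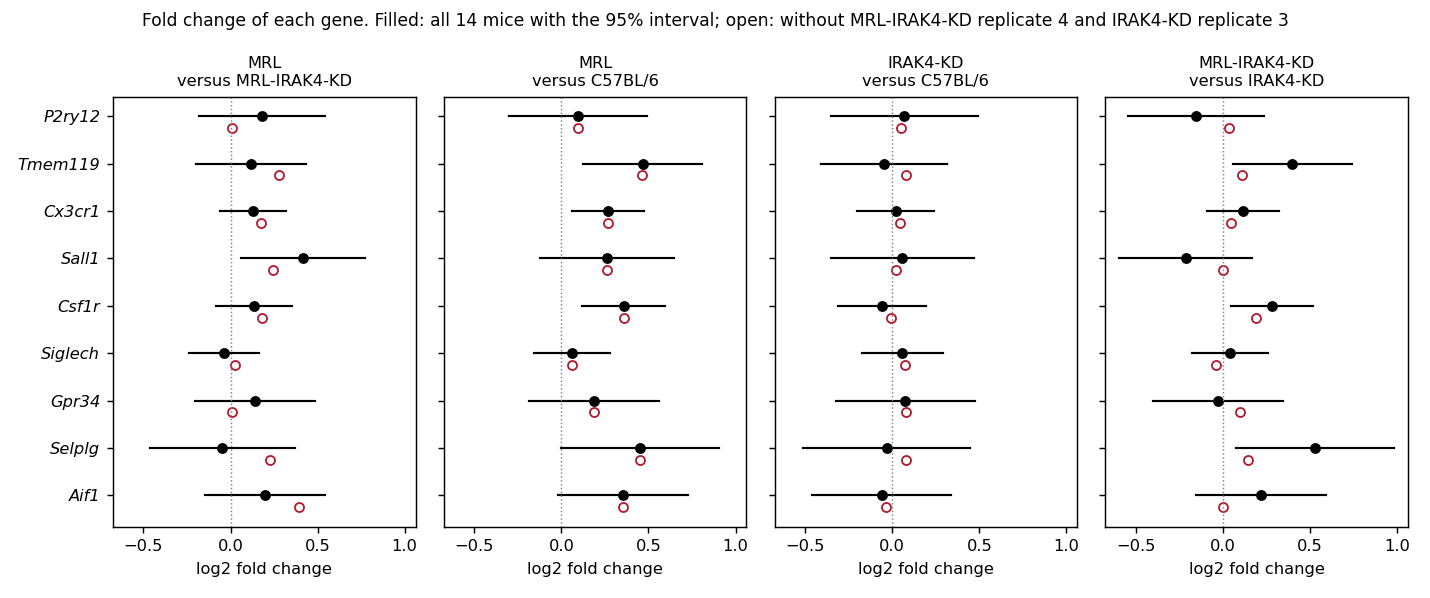
Log2 fold change (horizontal axis) of the 9 genes in the 4 comparisons of groups. Filled points with lines are the edgeR estimate and its 95% interval over all 14 mice, and open points are the estimate without MRL-IRAK4-KD replicate 4 and IRAK4-KD replicate 3. All filled points of MRL versus C57BL/6 lie above 0 (Siglech reached -0.0027 when scaled by library totals), and those of IRAK4-KD versus C57BL/6 lie between -0.060 and 0.074.

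Other genes of homeostatic microglia, 31 in all, were counted in the same comparisons. Against C57BL/6, 30 of 31 were above 0 in MRL. Their median was 0.30 on the log2 scale, and 11 were higher at an unadjusted p below 0.05, as were 3.16% of all genes. Against MRL-IRAK4-KD, 20 of 31 were above 0, with a median of 0.18, and 9 were higher at that level, as were 5.14% of all genes. Without MRL-IRAK4-KD replicate 4 and IRAK4-KD replicate 3, 28 of 31 were above 0 against MRL-IRAK4-KD and 20 were higher at that level, as were 5.12% of all genes, and against C57BL/6 21 were higher, as were 5.70%. None passed an adjusted p below 0.05 with edgeR in any comparison. The smallest p against MRL-IRAK4-KD belonged to Ptprc, the pan-leukocyte phosphatase CD45, at 4.84 ± 1.40 CPM in MRL and 2.89 ± 0.862 in MRL-IRAK4-KD (adjusted p = 0.427). Adora3, an adenosine receptor, followed at 1.31 ± 0.150 and 0.870 ± 0.172 CPM (adjusted p = 0.432), and Entpd1, the CD39 enzyme that breaks down extracellular ATP and ADP, at 13.6 ± 2.78 and 10.1 ± 0.628 CPM (adjusted p = 0.432, with SD and n = 4 each in this fit by edgeR). Adora3 and Entpd1 were also counted among the partners, as the adenosine and nucleotide side of P2RY12 signalling.

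The 14 lineage regulators gave 4 genes higher in MRL than in MRL-IRAK4-KD at an unadjusted p below 0.05 (5.14% of all genes), and 0 passed adjustment. Without the pair of libraries that stood apart the number was 3 (5.12% of all genes). Mef2c, also abundant in neurons, stood at 359 ± 133 CPM in MRL and 193 ± 62.0 in MRL-IRAK4-KD (adjusted p = 0.405 by edgeR). Runx1, a transcription factor of blood cell development, stood at 1.92 ± 0.591 and 1.30 ± 0.0715 CPM (adjusted p = 0.432 by edgeR). Spi1, encoding PU.1, measured 3.68 ± 0.353 CPM in MRL, 3.40 ± 0.619 in MRL-IRAK4-KD, 2.60 ± 0.170 in C57BL/6 and 2.15 ± 0.207 in IRAK4-KD. Its levels in the MRL and MRL-IRAK4-KD mice, 2.82 to 4.25 CPM, were above those of the C57BL/6 mice and the first pair of IRAK4-KD mice, 2.19 to 2.74 CPM, and that of the library labelled IRAK4-KD replicate 3, 1.92 CPM. It did not pass adjustment against C57BL/6 (adjusted p = 0.719 in MRL) or between the kinase-dead groups (adjusted p = 0.327). The share of all genes that split the mice as Spi1 did is not given here.

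Ligands and partners of the 9 proteins numbered 12, of which 4 were higher in MRL than in MRL-IRAK4-KD at an unadjusted p below 0.05 (5.14% of all genes) and 0 after adjustment. The number was again 4 without the pair of libraries that stood apart (5.12% of all genes). Il34, the neuronal CSF1R ligand, measured 30.5 ± 0.694 CPM in MRL, 30.5 ± 1.501 in MRL-IRAK4-KD, 30.1 ± 3.05 in C57BL/6 and 30.05 ± 3.94 in IRAK4-KD. Csf1 measured 27.3 ± 2.81, 22.4 ± 4.78, 25.1 ± 2.05 and 25.9 ± 1.95 CPM in the same order, with its lowest value, 15.4 CPM, in MRL-IRAK4-KD replicate 4. Cx3cl1, the fractalkine made by neurons, was the most abundant partner at 444 ± 30.1, 391 ± 105, 397 ± 36.5 and 419 ± 29.3 CPM. Selp, the endothelial P-selectin bound by PSGL-1, had the smallest p of the partners at a log2 fold change of 2.79 over MRL-IRAK4-KD (SE 0.72, adjusted p = 0.335 by edgeR). Its MRL mice ranged from 25 to 369 counts and its MRL-IRAK4-KD mice from 10 to 21. These are low counts, and the MRL mean of 0.271 CPM had an SD of 0.337.

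Markers of blood and vessel cells had higher fitted values in the MRL group as well. Of 12 monocyte and neutrophil markers, 12 were above 0 in MRL over MRL-IRAK4-KD. At an unadjusted edgeR p below 0.05, 11 were higher in MRL, as were 5.14% of all genes. The 12 summed to 2.87 to 34.6 CPM in MRL, 1.48 to 4.61 in MRL-IRAK4-KD, 1.84 to 3.896 in C57BL/6 and 2.56 to 6.62 in IRAK4-KD. Red cell markers, 6 of 6 above 0, summed to 84.0 to 369.9 CPM in MRL and 53.1 to 193 CPM in MRL-IRAK4-KD. Endothelial markers, 7 of 7 above 0, summed to 158 to 295 CPM in MRL, 106 to 137 in MRL-IRAK4-KD, 103 to 121 in C57BL/6 and 73.1 to 84.7 in IRAK4-KD. The highest sums belonged to different MRL mice, replicate 2 for monocytes and neutrophils, replicate 1 for red cells and replicate 4 for endothelium. None of these markers was at 0 in every mouse. Without the pair of libraries that stood apart, the numbers at an unadjusted p below 0.05 in this comparison were 11 of 12 for monocytes and neutrophils, 6 of 6 for red cells (4 with all mice) and 6 of 7 for endothelium (5 with all mice). Of all genes, 5.12% were then higher in MRL at that level. Slco1a4, an organic anion transporter of brain endothelium, was the only gene of the 18 lists to pass adjustment, at 44.6 ± 6.92 CPM in MRL and 24.3 ± 4.27 in MRL-IRAK4-KD (log2 fold change 0.88, SE 0.15, adjusted p = 0.0434 by edgeR). The part of these cells in the levels of the 9 genes was not tested. Csf1r, Cx3cr1, Selplg and Aif1 are also made by monocytes, whereas Tmem119, P2ry12 and Sall1 are low in them.

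The 9 genes did not move as a block. In the deviations of log2 CPM from the group mean over the 14 mice, P2ry12 and Gpr34 had a Pearson r of 0.91 (rho 0.96), and Tmem119 and Selplg an r of 0.93 (rho 0.86). Across these pairs r was below 0, at -0.65 for P2ry12 and Selplg, -0.60 for P2ry12 and Tmem119, -0.35 for Gpr34 and Selplg and -0.34 for Gpr34 and Tmem119. Sall1 and Selplg had an r of -0.77. All 14 points share the libraries from which the genes were counted, and the values below 0 moved with MRL-IRAK4-KD replicate 4. Without it, r was 0.89 for P2ry12 and Gpr34 and 0.84 for Tmem119 and Selplg. The values across the pairs were then 0.20, 0.091, 0.49 and 0.31 in the order above, and Sall1 and Selplg stood at -0.11.

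**Figure D3:**
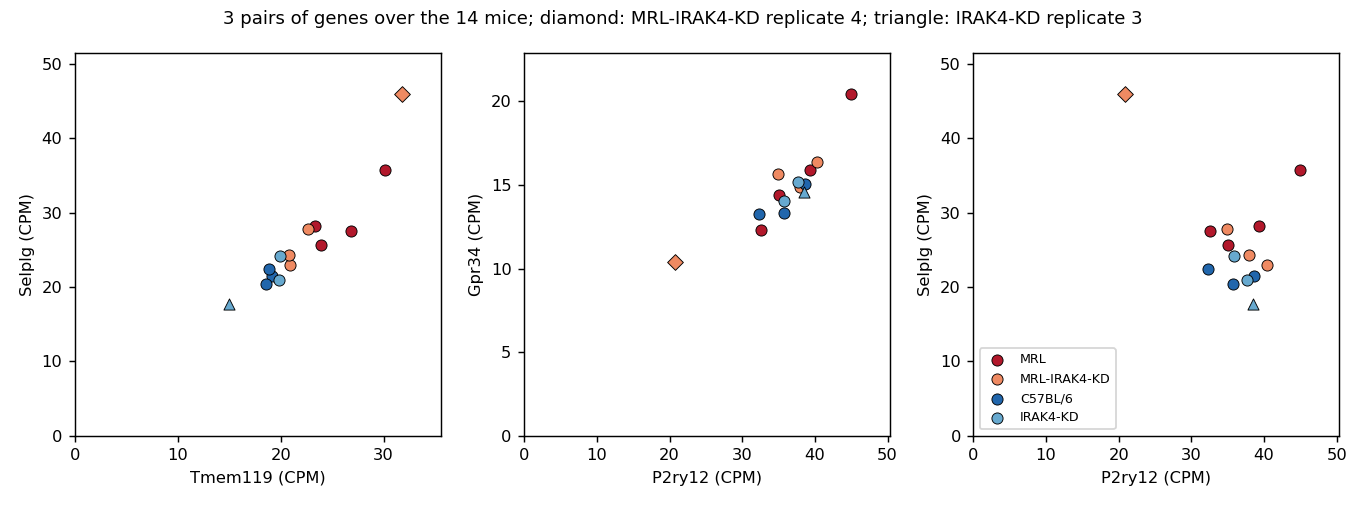
CPM of 3 pairs of genes in each of the 14 mice, both axes from 0, coloured by group. Tmem119 and Selplg, and P2ry12 and Gpr34, lie along a line, whereas in the plot of P2ry12 and Selplg the library MRL-IRAK4-KD replicate 4 (diamond) sits alone at the lowest P2ry12 and the highest Selplg, 20.8 and 45.9 CPM.

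In MRL-IRAK4-KD replicate 4 the summed CPM of the set was 298, against 270.5 to 277 CPM in the other 3 mice of its group, while single genes lay on either side. Against the mean of those 3 mice, Sall1 was lower by 0.86 on the log2 scale, P2ry12 by 0.85 and Gpr34 by 0.59, while Selplg was higher by 0.88, Aif1 by 0.66, Tmem119 by 0.57 and Siglech by 0.26. The departure was not particular to these genes. The SD over 16093 genes of this library's deviation from its group was 0.944, against 0.239 to 0.420 in the other 13. Transcript GC content and length are given beside it. Genes in the lowest quartile of transcript GC had a median deviation of -0.41 and those in the highest quartile 0.28. P2ry12 (38.6% GC) and Gpr34 (37.1%) were in the lowest quartile and Selplg (58.6%) and Tmem119 (59.1%) in the highest. Sall1 (51.6%) and Siglech (44.2%) went against this order. Over the 9 genes the deviation had an r of 0.69 (rho 0.48) with GC and -0.47 (rho -0.72) with the logarithm of transcript length. Across all these genes the correlation with GC was 0.22 in this library, inside the range of -0.32 to 0.33 in the other 13, and that with length was -0.34, outside their range of -0.25 to 0.33. The part of either in the departure was not tested.

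Summed over the 9 genes, MRL mice had 280.4 to 357 CPM, MRL-IRAK4-KD mice 270.5 to 298, C57BL/6 mice 243 to 262 and IRAK4-KD mice 241 to 259. Every mouse of the MRL and MRL-IRAK4-KD groups was above every mouse of the others in this sum, in which Csf1r and Cx3cr1 weigh most. The lowest sum was that of the library labelled IRAK4-KD replicate 3, and without it the other 5 mice still reached at most 262 CPM. How often sums of other genes split the mice in this way is not given here.

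Outside the set, the genes whose levels most resembled the mean profile of the 9 over the 14 mice, among 16095 genes with a mean of at least 1 CPM, were Ccl6 (Pearson r 0.89), Ctss (0.87), Itgb2 (0.86), Vsir (0.84), Ly86 (0.84) and Gpr89 (0.84). Ctss encodes the lysosomal protease cathepsin S, Itgb2 the beta chain of leukocyte integrins, and Vsir an immune checkpoint receptor. Without MRL replicates 1 and 4, the mice farthest from the median profile, these values lay between 0.56 for Gpr89 and 0.87 for Ctss. Within the set, Csf1r (0.92) and Cx3cr1 (0.91) were closest to the mean profile and P2ry12 (0.14) and Sall1 (0.25) farthest from it. With MRL-IRAK4-KD replicate 4 and IRAK4-KD replicate 3 left out and the mean profile taken anew over 12 mice, P2ry12 stood at 0.65, Sall1 at 0.82 and the 6 genes outside the set at 0.84 to 0.94.

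The gene counts are sums over annotated isoforms, and the isoform shares were less even than the gene totals. Of the counts of P2ry12, P2ry12-203 took 45.7% to 75.8% in 11 mice, 2.87% in MRL-IRAK4-KD replicate 3, 6.6% in IRAK4-KD replicate 1 and 99.9% in MRL-IRAK4-KD replicate 4. In the first pair of these exceptions P2ry12-204 took 70.2% and 64.2%. Their gene totals, 37.996 and 35.8 CPM, were within the range of the other mice. Aif1-201 was listed at 0 in MRL replicate 4, C57BL/6 replicate 2 and IRAK4-KD replicates 1 and 3, where Aif1-203 took 56.4% to 84.8%. For Gpr34, named here after its values were seen, Gpr34-202 took 56.2% to 77.2% in the C57BL/6 mice and 7.18% to 30.9% in the MRL and MRL-IRAK4-KD mice, without overlap. Of the IRAK4-KD mice, replicate 1 lay between these ranges at 44.6%, and replicate 2 at 15.7% and the library labelled replicate 3 at 22.0% lay within the lower one. The share of all isoforms that separate the mice in this way is not given here. The isoform split is an estimate, and a difference between groups in Gpr34 isoforms was not tested. Siglech-204, annotated as a target of nonsense-mediated decay, took 40.9% to 81.4% of Siglech counts. Sall1 has a single annotated isoform, and Csf1r, Tmem119 and Selplg had at least 97.3% of their counts in 1 isoform.

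**Figure D4:**
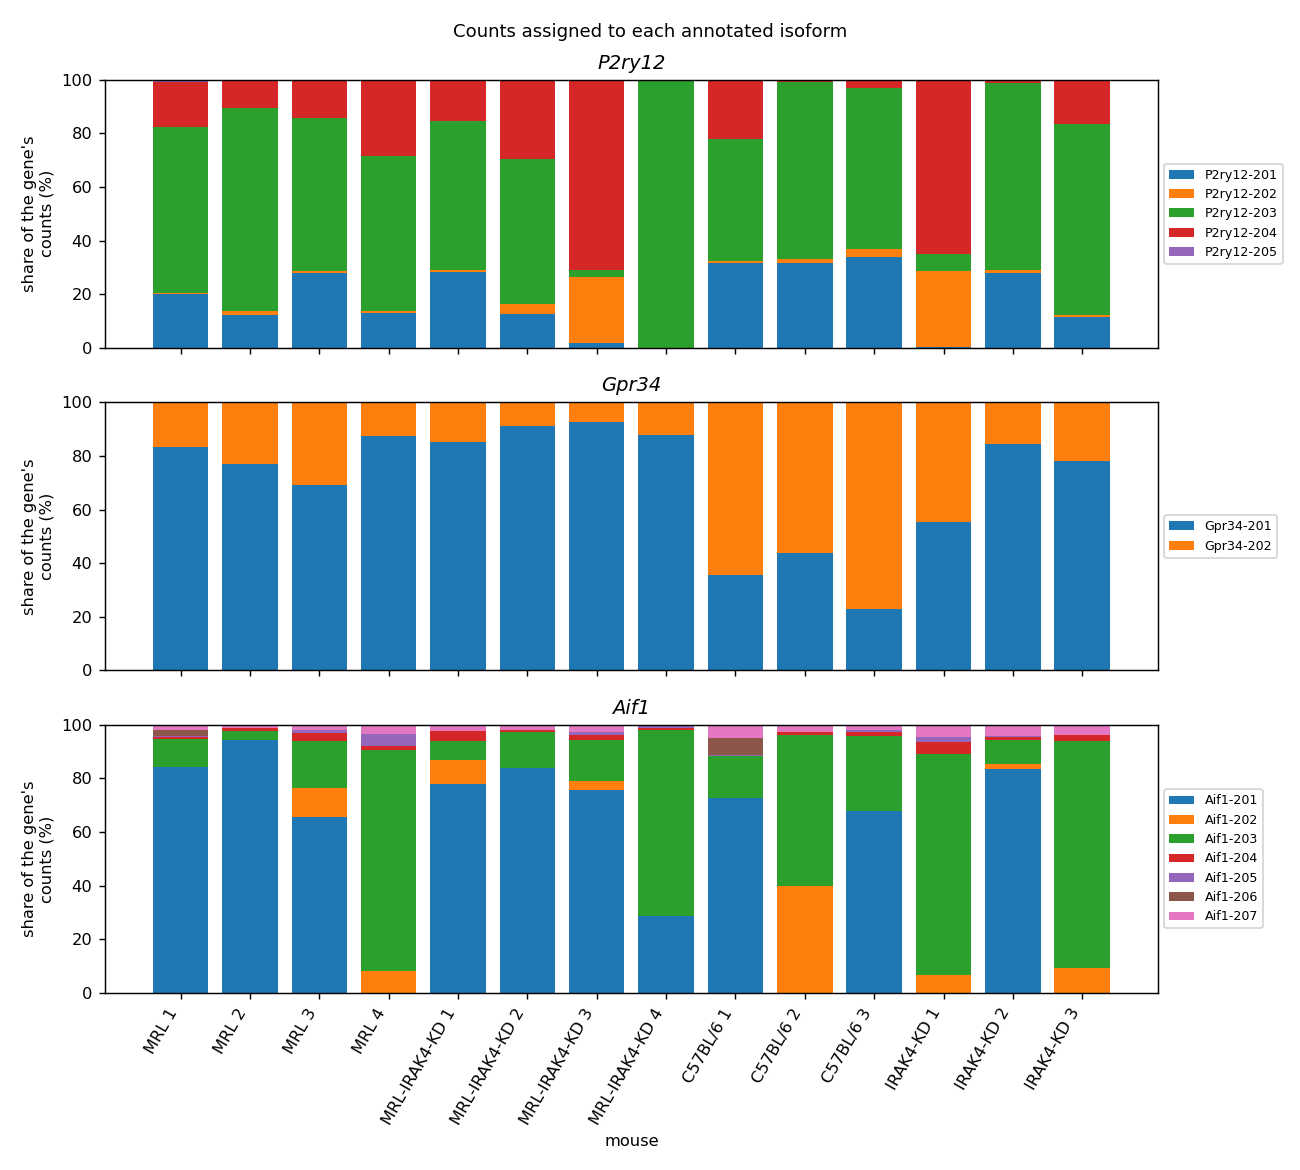
Share of the counts of P2ry12, Gpr34 and Aif1 (vertical axes, percent) assigned to each annotated isoform in each of the 14 mice. P2ry12-204 is largest in MRL-IRAK4-KD replicate 3 and IRAK4-KD replicate 1, Gpr34-202 is largest in the 3 C57BL/6 mice, and Aif1-203 replaces Aif1-201 in 4 mice.

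Several of the genes share their position with others. P2ry12 overlaps Med12l (274880 counts over the 14 mice beside 218412) and Gpr34 overlaps Cask, in each case on the opposite strand, and the annotated span of Cx3cr1 crosses 9 other genes, of which Wdr48 had 376994 counts beside 312614 for Cx3cr1. Cask had 328206 counts and Gpr34 88989. Some of the genes crossed by Cx3cr1 lie on its own strand, among them Gorasp1 with 145778 counts. These overlaps are of whole gene spans, and overlap of exons was not examined. Strand use in the counting is not known, and how far reads of overlapping genes were told apart was not tested.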

How the data were processed

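Whole hippocampus of 14 mice was profiled by poly(A) RNA-seq. The deposited gene and transcript tables hold whole-number counts, and the submitters' processing notes name HISAT2 2.1.0, SAMtools 1.9, StringTie 2.1.0, R 4.0.5 and DESeq2 1.30.1 with mm10. StringTie converts coverage to counts with a preset read length, and the deposited counts exceeded the reads of each library, and the isoform split is its estimate. The sources differ on the library kit, and strand use in counting is not given in the sources used here. A deposited lane sheet gave the read count and qPCR concentration of each library. Of 81881 features, 26345 had no Ensembl identifier (0.03% to 0.19% of counts) and were left out. Identifiers matched GENCODE M21.

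Groups came from the labels, with 1 mouse per replicate. Genes reaching 10 counts summed over the mice were tested with the quasi-likelihood test of edgeR 4.0.16 in R 4.3.3 (TMM scaling, 1 fit of all 4 groups), with Benjamini-Hochberg adjustment over 38070 genes and a threshold of 0.05. CPM was scaled by TMM. Two-sided exact permutation tests used log2(CPM + 0.1), computed with scipy 1.17.1 in Python 3.11.15. The smallest p they allow is 0.0286 for 4 against 4 mice, 0.0571 for 4 against 3 and 0.1 for 3 against 3. Alternatives were DESeq2 1.42.0, limma-voom with limma 3.58.1, other scalings and filters, only the groups compared, the replicate number as a block, and each mouse left out. The fits were tested on simulated data.

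The 9 genes and all lists were chosen with earlier results of these data known. All 9 genes are named. From other lists, the text names called genes and, for MRL against MRL-IRAK4-KD, the 3 genes of smallest p among other homeostatic genes, lineage regulators and partners. It also names the 6 genes most like the mean standardized profile among those with a mean of at least 1 CPM, and a promoter with a motif match. A gene that this rule names is not reported here. Other genes were named after their values were seen. Replicate numbers shared between groups were not treated as pairs in the main fit (closing section).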

Additional observations from a re-analysis of the deposited data

Results flagged for a closer look

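Within the groups of 4 mice, 54 sets of levels (the 9 genes and the summed lists) were searched for a mouse far from the other 3 by Dixon's criterion, and 9 stood out. Chance picks out about 1 in 20. Of the 9 genes, only Aif1 did, at 6.70 CPM in MRL-IRAK4-KD replicate 4 against 4.01 to 4.32 CPM in the other 3 mice. The same mouse stood out in 6 summed lists. Partners of the 9 proteins summed to 339 CPM there (535 to 553 in the other 3), neuronal markers to 5644 CPM (7146 to 7296) and disease-associated microglia genes to 8901 CPM (4182 to 4745). Plasmacytoid dendritic cell genes summed to 1352 CPM (697 to 727), red cell markers to 193 CPM (53.1 to 57.5) and pituitary markers to 5.97 CPM (2.32 to 2.62). Of the plasmacytoid list, Ccr9 was at 0.602 CPM in this mouse (0.427 to 0.646 in the other 3) and Cd209d at 0.245 CPM (0 to 0.0184). Klk1 was at 0 (0 to 0.0168 in the other 3), as was Ly6d (0.0165 to 0.213). That sum therefore came almost wholly from other genes of the list. The part of plasmacytoid cells in it was not tested. In the MRL group, replicate 4 had 295 CPM of endothelial markers (158 to 177 in the other 3), and replicate 3 had 87.4 CPM of pituitary markers (1.63 to 5.56).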

How the results depend on the processing

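No gene of the set passed in any comparison under any alternative run, and no exact p changed side with a pseudocount of 1. Only in MRL against MRL-IRAK4-KD could an exact p fall below 0.05. In the other comparisons its smallest value was 0.0571 or 0.1, so the pseudocount could not change its side. Of 45 log2 fold changes, 31 kept their direction with each mouse left out. Those that did not were no larger than 0.16. Their ranges over mice left out were -0.086 to 0.036 for Siglech, -0.013 to 0.26 for Gpr34 and -0.16 to 0.23 for Selplg in MRL over MRL-IRAK4-KD. In IRAK4-KD over C57BL/6 they were -0.12 to 0.074 for Tmem119, -0.044 to 0.072 for Cx3cr1, -0.15 to 0.075 for Selplg and -0.16 to 0.018 for Aif1. In MRL-IRAK4-KD over IRAK4-KD they were -0.26 to 0.016 for P2ry12, -0.028 to 0.064 for Siglech and -0.11 to 0.099 for Gpr34. In the interaction they were -0.015 to 0.24 for Tmem119, -0.028 to 0.15 for Csf1r, -0.030 to 0.094 for Siglech and -0.20 to 0.20 for Selplg.

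Limma-voom turned P2ry12 (-0.046), Gpr34 (-0.068) and Selplg (0.14) in MRL over MRL-IRAK4-KD, Siglech (-0.033), Gpr34 (0.060) and Aif1 (-0.023) in MRL-IRAK4-KD over IRAK4-KD, and Selplg (0.10) in the interaction. Scaling by library totals turned Siglech in MRL over C57BL/6 (-0.0027) and in MRL-IRAK4-KD over IRAK4-KD (-0.012). The cause was not tested. Leaving out MRL-IRAK4-KD replicate 4 and IRAK4-KD replicate 3 together, an alternative chosen after seeing the data, turned Siglech (0.026) and Selplg (0.22) in MRL over MRL-IRAK4-KD, Tmem119 (0.079) and Selplg (0.081) in IRAK4-KD over C57BL/6, P2ry12 (0.037), Siglech (-0.041), Gpr34 (0.096) and Aif1 (-0.0021) in MRL-IRAK4-KD over IRAK4-KD, and Selplg (0.31) in the interaction, where Tmem119 stood at 0.36, Csf1r at 0.17 and Siglech at 0.099.

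Mice with the same replicate number were compared in their deviations from the group mean. Over 19 pairs the correlation of their deviations ran from -0.25 to 0.37 and exceeded 0.1 in 4. Pairs with different numbers are not given beside them, so these values cannot decide whether the numbers pair the mice. With the replicate number as a block, 0 genes of the set passed, and only Selplg in MRL over MRL-IRAK4-KD (0.0051) and Gpr34 in MRL-IRAK4-KD over IRAK4-KD (0.078) changed direction. With 3 or 4 mice a group, the 95% intervals give the fold changes compatible with these data and are not detection limits. In the simulated data, edgeR recovered 2% to 4% of changes of 0.5 on the log2 scale after adjustment. For changes of 1 it recovered 43% to 67%. Counts run above the number of reads, so their error cannot be read from their size.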

Other observations

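Disease-associated microglia genes, the set that microglia raise around damage, are given beside the homeostatic genes. Of 20, 17 were above 0 in MRL over C57BL/6. Their median was 0.17 on the log2 scale, and 4 were higher at an unadjusted edgeR p below 0.05, as were 3.16% of all genes (8 of 20, and 5.70% of all genes, without MRL-IRAK4-KD replicate 4 and IRAK4-KD replicate 3). Above 0 were 48.1% of all genes. In MRL over MRL-IRAK4-KD, 11 were above 0 with a median of 0.068, and 2 were higher and 2 lower at that level, where 11.4% of all genes were at it in either direction. Without the same pair of libraries 4 were higher and 0 lower, where 8.73% of all genes were at that level in either direction. None passed adjustment. Markers of border-associated macrophages, which line the vessels and meninges, summed to 11.1 to 20.9 CPM in MRL, 8.82 to 14.3 in MRL-IRAK4-KD, 7.46 to 14.8 in C57BL/6 and 7.05 to 11.1 in IRAK4-KD, and 10 of 10 were above 0 in MRL over C57BL/6.

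Oligodendrocyte markers, 7 of 7, were above 0 in MRL over C57BL/6 (median 0.33), MRL-IRAK4-KD over IRAK4-KD (0.33) and IRAK4-KD over C57BL/6 (0.10). In MRL over MRL-IRAK4-KD 2 of 7 were. At an unadjusted edgeR p below 0.05 were 3, 3 and 0 markers in the first 3 comparisons, against 5.55%, 8.63% and 3.8% of all genes. Without MRL-IRAK4-KD replicate 4 and IRAK4-KD replicate 3 the numbers were 3, 0 and 0, against 10.2%, 6.80% and 5.67% of all genes. Of 9 plasmacytoid dendritic cell genes, the other cells that make Siglech, 5 were above 0 in MRL over C57BL/6. Lymphocyte markers gave 6 of 13 above 0 in MRL over MRL-IRAK4-KD, neuronal markers 3 of 9, astrocyte markers 6 of 7, choroid plexus markers 0 of 8, meningeal and fibroblast markers 1 of 8, striatal markers 4 of 8 and pituitary markers 4 of 7.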
